A study of Hordeum vulgare with 12 samples.

Results

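A pair of C-repeat binding factor (CBF) genes, CRT/DRE binding factor 1 (HORVU0Hr1G016540) and CBF14 (HORVU5Hr1G080350), were measured in barley (Hordeum vulgare) leaf. They are 2 of the 30157 genes in the deposited gene table and were chosen by identifier, with their levels under drought already known. Their own differences between groups are therefore given as descriptions, with errors and without a test. The 12 RNA-seq libraries fall into 4 groups of 3: accession BCS24 under drought, BCS24 control, accession BCS8 under drought and BCS8 control, where control is the reading given here to the treatment label "ck". Nothing else separates the groups in the labels. No label gives plant age, the drought regime or whether replicates are separate plants, so the errors measure the spread between these libraries, which may be technical.

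CBF proteins belong to the AP2/ERF family of transcription factors and bind the C-repeat, also called the dehydration-responsive element, in the promoters of their target genes. In cereals and in Arabidopsis they are best known for switching on dehydrins and other cold-acclimation genes within hours of a fall in temperature. In Arabidopsis their transcription is also controlled by the circadian clock and by phytochrome. In barley many CBF genes lie side by side in a cluster on chromosome 5H, at a locus that affects frost survival.

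The libraries held 49553836 to 61212440 counts each, from oligo(dT)-selected, strand-marked paired-end sequencing. Expression is given in FPKM, fragments scaled to transcript length and to library size, so levels of genes of different length can be set side by side. The 39 genes described as rubisco small subunit or chlorophyll a-b binding protein summed to 42485 to 72846 FPKM in BCS24 drought, 38127 to 50574 in BCS24 control, 29628 to 42794 in BCS8 drought and 25514 to 37749 in BCS8 control, which fits the leaf label. The descriptions matched 0 hordein genes and 0 Casparian strip genes, so grain and root tissue could not be looked for this way. The 1 tapetum gene had 0.696 to 5.57 FPKM. The share of counts on genes annotated as ribosomal RNA differed in range between the groups, with overlap between drought and control in both accessions. It was 0.202% to 0.658% in BCS24 drought, 0.531% to 2.07% in BCS24 control, 0.918% to 2.22% in BCS8 drought and 0.520% to 0.997% in BCS8 control. In leaf tissue, fewer cells that express a gene and less RNA per cell cannot be told apart.

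Each of the 2 genes has a single transcript with 1 exon in the deposited transcript table, and its counts there equal those of the gene table in all 12 libraries. The CRT/DRE binding factor 1 transcript covers 660 bases on the plus strand of the unanchored sequence (Un:89030447-89031106). The CBF14 transcript covers 1286 bases on the minus strand of 5H (5H:560195525-560196810). These positions are those of the deposited table, whose genome build is not given in the sources used here. Both genes carry the annotation terms response to cold, cold acclimation and response to water deprivation. The first reached 1 FPKM in 7 of the 12 libraries and CBF14 in 12 of 12, and both passed the filter for testing, 1 FPKM in at least 3 libraries, as did 17342 genes in all.

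Transcripts of CRT/DRE binding factor 1 were more abundant under drought in both accessions, and in BCS24 control leaf they were almost unread. BCS24 drought libraries 1, 2 and 3 had 3.60, 3.77 and 1.12 FPKM, from 148, 154 and 51 counts. BCS24 control libraries had 0, 0.0172 and 0 FPKM, from 0, 1 and 0 counts. Every drought library of BCS24 lay above every control library of that accession. Summed over the group, 353 counts under drought stood against 1 count in control, a depth-scaled ratio of 366 with a 95% exact counting interval of 65.2 to 14500. That interval covers counting error only and leaves out the spread between libraries, since counts were summed over each group. Fragments copied by PCR are not independent molecules, so it may understate the counting error too.

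BCS8 had the same direction of difference from a control level that was well counted. BCS8 drought libraries had 3.21, 3.57 and 7.64 FPKM, from 128, 134 and 345 counts. BCS8 control libraries had 1.25, 0.77 and 0.768 FPKM, from 47, 36 and 33 counts. The groups did not overlap, and the fitted log2 fold change was 2.41 ± 0.55 (standard error, n = 3 libraries a group). The depth-scaled ratio of summed counts was 5.55, with a counting interval of 4.54 to 6.83. Library 3 was the highest of the BCS8 drought group, and without it the log2 fold change was 1.89. A gene higher under drought without overlap in FPKM was not rare: 7.69% of all tested genes in BCS24 and 7.83% in BCS8 had that pattern.

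Ordered by mean, CRT/DRE binding factor 1 stood at 4.81 ± 2.46 FPKM in BCS8 drought, 2.83 ± 1.49 in BCS24 drought, 0.93 ± 0.28 in BCS8 control and 0.00573 ± 0.00992 in BCS24 control (SD, n = 3 each). The first 2 groups overlapped, and so did BCS24 drought and BCS8 control, through BCS24 drought library 3 at 1.12 FPKM. Under drought the log2 fold change of BCS24 over BCS8 was −0.72 ± 0.52, and −0.191 without BCS8 drought library 3. In control leaf the BCS24 libraries were all below the BCS8 libraries, with 1 count in BCS24 against 116 in BCS8. The ratio of BCS8 control over BCS24 control was 112, with a counting interval of 19.7 to 4470. Without BCS24 control library 1 it was 71.7, and without BCS24 control library 2, which holds the 1 count, it has no value. Among all tested genes, 21.7% were lower in BCS24 than in BCS8 control leaf without overlap.

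CBF14 was read in every library; its drought and control libraries were apart in BCS24 and overlapped in BCS8. BCS24 drought libraries had 5.24, 2.74 and 6.84 FPKM, from 417, 218 and 603 counts. BCS24 control libraries had 2.54, 1.40 and 1.08 FPKM, from 215, 109 and 78 counts. The groups did not overlap, though BCS24 drought library 2 at 2.74 FPKM lay just above BCS24 control library 1 at 2.54 FPKM. Of all tested genes 7.69% were higher under drought in BCS24 without overlap. The log2 fold change of CBF14 for drought over control in BCS24 was 1.69 ± 0.43.

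In BCS8 the CBF14 ranges overlapped. BCS8 drought libraries had 5.41, 5.95 and 6.65 FPKM, from 419, 434 and 584 counts. BCS8 control libraries had 3.31, 5.93 and 2.69 FPKM, from 241, 529 and 223 counts. Control library 2 reached the drought range, and the log2 fold change in BCS8 was 0.64 ± 0.41, or 1.04 without that control library. The difference between the drought effects of BCS24 and BCS8 was 1.05 ± 0.59 on the log2 scale, 0.65 without BCS8 control library 2 and 1.48 without BCS24 control library 1.

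By mean, CBF14 stood at 6.0 ± 0.62 FPKM in BCS8 drought, 4.94 ± 2.07 in BCS24 drought, 3.98 ± 1.72 in BCS8 control and 1.67 ± 0.77 in BCS24 control (SD, n = 3 each). The first 3 groups overlapped with their neighbours in that order. BCS24 control lay below all BCS8 control libraries, as for 21.7% of all tested genes. The log2 fold change of BCS24 over BCS8 in control was −1.26 ± 0.42. Under drought the same comparison gave −0.21 ± 0.41, with overlap, and 0.0889 without BCS24 drought library 2.

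**Figure D1:**
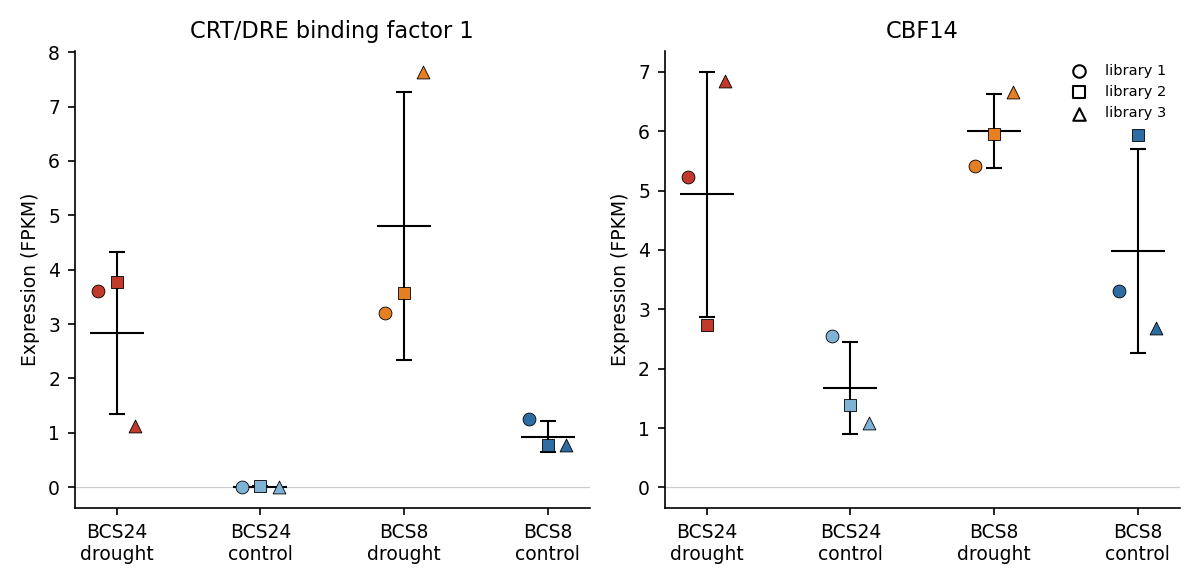
Expression of CRT/DRE binding factor 1 (left) and CBF14 (right) in FPKM in each library; the marker shape gives the library number, bars the mean and SD of 3 libraries. CRT/DRE binding factor 1 is at or near 0 in all 3 BCS24 control libraries, and BCS24 drought library 3 is the lowest drought library for that gene (1.12 FPKM) and the highest for CBF14 (6.84 FPKM).

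The 2 genes had the same order of group means, but their order over the 3 BCS24 drought libraries differed. BCS24 drought library 3 was the lowest drought library for CRT/DRE binding factor 1 and the highest drought library for CBF14. BCS24 drought library 2 was the reverse, with the highest CRT/DRE binding factor 1 level of its group and the lowest CBF14 level. In BCS8 drought both genes were lowest in library 1 and highest in library 3. In FPKM, CRT/DRE binding factor 1 amounted to 68.8%, 138% and 16.3% of CBF14 in BCS24 drought libraries 1 to 3, against 0%, 1.23% and 0% in BCS24 control. It amounted to 59.3%, 60.0% and 115% of CBF14 in BCS8 drought libraries, against 37.9%, 13.0% and 28.5% in BCS8 control. Over the 12 libraries Pearson's r between the 2 genes was 0.726 on log2(CPM + 0.5), a description over points that share groups. With the ribosomal RNA share as a term in the model, the drought log2 fold change was 2.89 for CRT/DRE binding factor 1 in BCS8 and 1.46 for CBF14 in BCS24. With the same term CBF14 had 0.9 in BCS8, and the difference between its drought effects in BCS24 and BCS8 was 0.557.

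The deposited table names 14 CBF genes, 11 by description and 3 by gene symbol alone. The symbol of 1 of the 3, CBF5, may not stand for C-repeat binding factor. Of these, 9 lie on 5H between positions 559452881 and 560732948, a stretch of 1280 kb that holds CBF14. The genes of that stretch that passed the filter were CBF2C (HORVU5Hr1G080220), CBF9 (HORVU5Hr1G080230), CBF4B (HORVU5Hr1G080300, described as CBF1-like protein BCBF1), CBF2A (HORVU5Hr1G080310), CBF12C (HORVU5Hr1G080340) and CBF14. The other 7 of the 14 CBF genes stayed at or below 0.736 FPKM in every library and were not tested. They include 3 genes described as HvCBF7 with the same count in all 12 libraries, so the counting did not tell those copies apart. How fragments shared by near-identical genes were counted is not given in the sources used here, which limits every CBF value.

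CBF4B made up most of the CBF transcript in leaf in every library. It ranged from 50.9 to 76.5 FPKM in BCS24 drought, 58.8 to 80.9 in BCS24 control, 49.8 to 73.9 in BCS8 drought and 56.7 to 81.1 in BCS8 control. Over the 12 libraries CBF2A spanned 3.44 to 13.4 FPKM, CBF2C 3.55 to 8.48, CBF12C 0.823 to 6.99 and CBF9 1.29 to 3.14. Under drought CRT/DRE binding factor 1 and CBF14 were thus at the level of the lesser 5H genes, far below CBF4B.

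None of these 5 other CBF genes passed the test under drought, at a Benjamini-Hochberg adjusted p of 0.05 in edgeR's quasi-likelihood test. No test outcome is given for the 2 genes under study, so this does not set the 5 apart from them. In BCS24, 2.65% of all tested genes passed, and in BCS8 1.53%. For the 5 genes the number at an unadjusted p under 0.05 was also 0 in both accessions, and DESeq2 and limma called 0. An unadjusted p under 0.05 was found for 20.6% of all tested genes in BCS24 and 16.3% in BCS8. CBF4B had a log2 fold change of drought over control of 0.03 ± 0.22 in BCS24 and −0.26 ± 0.22 in BCS8. CBF2A had −0.03 ± 0.37 in BCS24 and −0.35 ± 0.37 in BCS8. CBF2C had 0.10 ± 0.39 in BCS24 and −0.13 ± 0.39 in BCS8, and CBF9 had −0.34 ± 0.26 in BCS24 and −0.19 ± 0.26 in BCS8. The median of the 5 was 0.0275 in BCS24 and −0.19 in BCS8, beside −0.00132 in BCS24 and 0.0179 in BCS8 over all tested genes.

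CBF12C, the neighbour of CBF14 in the cluster, had positive estimates in both accessions that varied with the libraries used. Its drought libraries had 3.14, 2.49 and 4.78 FPKM in BCS24, against 3.55, 0.823 and 2.21 FPKM in BCS24 control. In BCS8 its drought libraries had 2.67, 3.10 and 6.99 FPKM, against 1.09, 3.28 and 1.45 FPKM in BCS8 control. The groups overlapped in both accessions. The log2 fold changes were 0.79 ± 0.60 in BCS24 (edgeR adjusted p = 0.503) and 1.17 ± 0.60 in BCS8 (edgeR adjusted p = 0.363). Over libraries left out they spanned 0.394 to 1.3 in BCS24, lowest without BCS24 control library 2, and 0.592 to 1.76 in BCS8, lowest without BCS8 drought library 3. With the ribosomal RNA share as a term the BCS24 value was 0.208 and the BCS8 value 1.78.

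**Figure D2:**
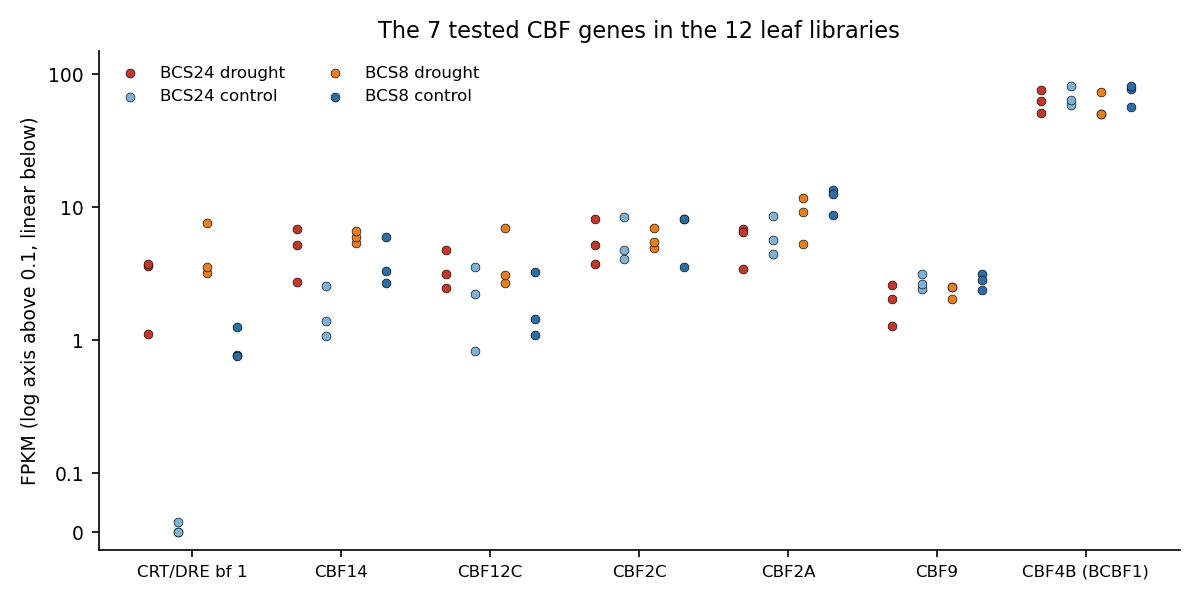
FPKM of the 7 CBF genes that passed the filter, 1 point per library, with the 4 groups side by side for each gene and an axis that is logarithmic above 0.1. CBF4B lies at 49.8 to 81.1 FPKM in all libraries, and the only points below 0.1 are the BCS24 control libraries of CRT/DRE binding factor 1.

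**Figure D3:**
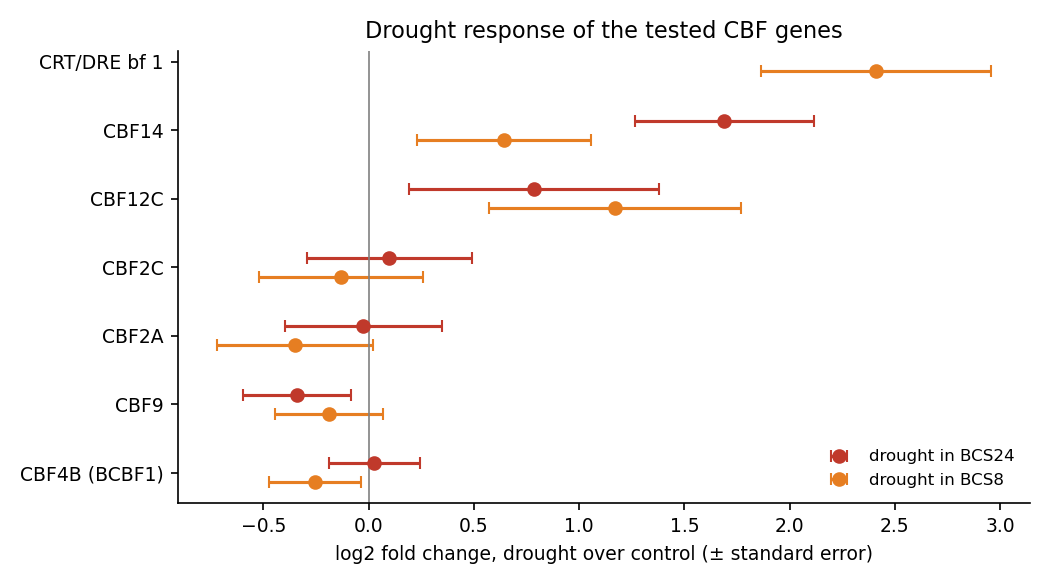
Log2 fold change of drought over control for the tested CBF genes in BCS24 and BCS8, with standard errors. CRT/DRE binding factor 1 is drawn for BCS8 only (2.41), since its BCS24 control group has 1 count; CBF14 stands at 1.69 in BCS24 and 0.64 in BCS8.

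Between the accessions the other CBF genes again passed no test. In control leaf 19.1% of all tested genes differed between BCS24 and BCS8, and under drought 27.4%, while 0 of the 5 CBF genes passed in edgeR, DESeq2 or limma in either condition. At an unadjusted p under 0.05 the count was 1 in control and 0 under drought, beside 35.2% of all tested genes in control and 41.4% under drought. The 1 gene was CBF2A, with 8.55, 4.41 and 5.68 FPKM in BCS24 control libraries, against 13.4, 12.6 and 8.67 FPKM in BCS8 control libraries. The groups did not overlap, and 21.7% of all tested genes were likewise lower in BCS24 control without overlap. The log2 fold change of CBF2A for BCS24 over BCS8 was −0.90 ± 0.37 (edgeR adjusted p = 0.113). For the accession-by-drought interaction 0 of the 5 genes passed in edgeR, DESeq2 or limma, and 0 at an unadjusted p under 0.05.

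As a share of the summed CBF FPKM, the 2 genes together gave 9.59%, 9.50% and 7.66% in BCS24 drought libraries, against 2.37%, 1.95% and 1.33% in BCS24 control. They gave 8.21%, 12.6% and 15.6% in BCS8 drought libraries, against 4.25%, 5.84% and 4.53% in BCS8 control. The drought share was above the control share in every library of both accessions, and the lowest share of the 4 groups was that of BCS24 control. The 2 genes were chosen with their levels known, so these shares are a description. The share of CBF14 alone overlapped in BCS8, with 5.157% in drought library 1 and 5.165% in control library 2. The shares also depend on CBF4B, which averaged 57.9 ± 13.8 FPKM in BCS8 drought and 71.5 ± 13.0 in BCS8 control. In BCS24 it averaged 63.4 ± 12.8 under drought and 68.0 ± 11.5 in control.

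**Figure D4:**
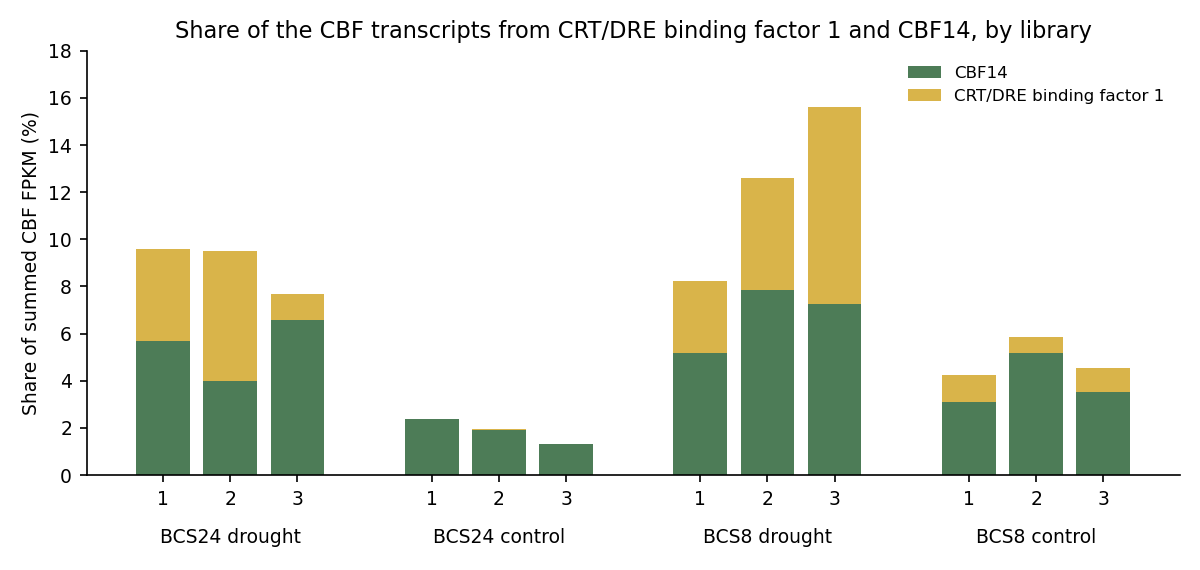
Share of the summed FPKM of the 14 named CBF genes that came from CBF14 (green) and CRT/DRE binding factor 1 (yellow), per library. Both colours together span 7.66% to 9.59% in BCS24 drought, 1.33% to 2.37% in BCS24 control, 8.21% to 15.6% in BCS8 drought and 4.25% to 5.84% in BCS8 control.

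No tested gene around the 2 loci passed the edgeR test under drought. Within 1 Mb of CBF14 the table holds 20 genes, of which 8 were tested, and 0 passed under drought in either accession by edgeR. Of those 8, 5 are the other CBF genes already given and 3 are not CBF genes. At an unadjusted p under 0.05 the count among them was 1 in BCS24 and 0 in BCS8, DESeq2 called 1 in BCS24 and 0 in BCS8, and limma called 0. Within 1 Mb of CRT/DRE binding factor 1 the table holds 12 genes, of which 8 were tested. Here too 0 passed under drought by edgeR, with 4 at an unadjusted p under 0.05 in each accession, 2 called by DESeq2 in BCS24 and 3 in BCS8, and 1 by limma in each. Over all tested genes 20.6% in BCS24 and 16.3% in BCS8 had an unadjusted p under 0.05, DESeq2 called 10.4% in BCS24 and 6.82% in BCS8, and limma 4.09% in BCS24 and 2.39% in BCS8. Since that gene is on unanchored sequence, its listed neighbours may not be its neighbours in the genome.

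Among those neighbours, 1 was higher and 2 were lower in BCS24 than in BCS8 under drought, where 13.3% of all tested genes were called higher and 14.1% lower. HORVU0Hr1G016450, described as TRANSPARENT TESTA GLABRA 1, a WD-repeat regulator of flavonoid and epidermal cell genes in Arabidopsis, was lower in BCS24 than in BCS8 (log2 fold change −0.79 ± 0.19, edgeR adjusted p = 0.0154). The call was lost without BCS8 drought library 2, BCS24 drought library 1 or BCS24 drought library 3, with only the groups compared in the fit and with the ribosomal RNA share as a term. HORVU0Hr1G016480, a predicted protein, was near 0 in BCS24 under drought, with 7, 10 and 0 counts in BCS24 drought libraries, against 158, 124 and 307 counts in BCS8 drought libraries (edgeR adjusted p = 0.00565). On 5H, HORVU5Hr1G080240, described as a Holliday junction resolvase, was higher in BCS24 by 0.53 ± 0.17 (edgeR adjusted p = 0.0375). Its call was lost by limma, with only the groups compared, with the ribosomal RNA share as a term, and without any of 6 libraries, namely BCS8 drought 1 and 2, BCS24 control 1 and 3, and BCS24 drought 1 and 3.

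Few genes could be followed upstream and downstream of the CBF proteins by their descriptions, because 29.2% of the tested genes carry one. The 1 tested gene described as a target type was HORVU4Hr1G057000, low temperature-induced protein lt101.1. It had 101, 123 and 21.1 FPKM in BCS24 drought libraries, against 15.1, 9.97 and 10.7 FPKM in BCS24 control libraries. All BCS24 drought libraries were higher than the controls, as for 7.69% of all tested genes, with library 3 the lowest. The log2 fold change was 2.88 ± 0.89 (edgeR adjusted p = 0.108). In BCS8 it had 114, 37.8 and 291 FPKM under drought, against 17.6, 121 and 64.4 FPKM in control, a log2 fold change of 1.18 ± 0.83 (edgeR adjusted p = 0.513). Neither difference passed by edgeR or limma, while DESeq2 called the one in BCS24, where the unadjusted p was also under 0.05, and not the one in BCS8. In BCS24, DESeq2 called 10.4% of all tested genes, and 20.6% had an unadjusted p under 0.05.

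The 1 gene described as an upstream regulator was HORVU2Hr1G075470, similar to the rice kinase SAPK7. Its log2 fold change under drought was 0.23 ± 0.18 in BCS24 (edgeR adjusted p = 0.517) and −0.36 ± 0.18 in BCS8 (edgeR adjusted p = 0.349). Of 7 other AP2/ERF genes by description, 2 were tested, HORVU0Hr1G007050 and HORVU3Hr1G078150, both AP2/EREBP-like proteins. Neither passed by edgeR in either accession. HORVU0Hr1G007050 had a log2 fold change of 1.38 ± 0.36 in BCS24 (edgeR adjusted p = 0.0665) and 1.02 ± 0.36 in BCS8 (edgeR adjusted p = 0.189). HORVU3Hr1G078150 had 1.36 ± 0.37 in BCS24 (edgeR adjusted p = 0.0753) and 1.12 ± 0.36 in BCS8 (edgeR adjusted p = 0.16). Both had an unadjusted p under 0.05 in each accession, DESeq2 called 2 in BCS24 and 1 in BCS8, and limma called 0. An unadjusted p under 0.05 was found for 20.6% of all tested genes in BCS24 and 16.3% in BCS8. DESeq2 called 10.4% in BCS24 and 6.82% in BCS8, and limma 4.09% and 2.39%. The values of the 2 AP2/EREBP-like genes were close to each other throughout. Reads of similar copies may be shared between them, so their results may not be separate.

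Of 10 genes described as light receptors, their partners or clock genes, 1 rose and 1 fell under drought in BCS24, where 1.4% of all tested genes were called higher and 1.25% lower. HORVU5Hr1G022750 is described as PPD1, a name used in cereals for a photoperiod gene of the pseudo-response regulator family. The description alone does not settle whether HORVU5Hr1G022750 is that gene. It had 7.51, 8.48 and 8.36 FPKM in BCS24 drought libraries, against 6.57, 4.48 and 4.08 FPKM in BCS24 control (log2 fold change 0.81 ± 0.17, edgeR adjusted p = 0.0412). HORVU4Hr1G008610, a phytochrome, had 1.24, 0.987 and 1.30 FPKM in BCS24 drought libraries, against 2.27, 2.57 and 2.29 FPKM in BCS24 control (−0.88 ± 0.17, edgeR adjusted p = 0.0304). That count of 2 was 0 with the ribosomal RNA share as a term or with only the groups compared in the fit, and 1 by limma, without the filter or with the replicate block, a term for the library number. The call lost by limma, without the filter and with the block was that of HORVU5Hr1G022750, which was lost in 14 of 22 alternatives. The count was also 0 without BCS8 control library 1, BCS24 control library 2 or 3, or BCS24 drought library 1 or 2, and 1 without BCS8 control library 2 or 3 or BCS24 drought library 3. In BCS8 edgeR called 0 of the 10, with 3 at an unadjusted p under 0.05, 1 called by DESeq2 and 0 by limma. Of all tested genes in BCS8, edgeR called 1.53%, DESeq2 6.82% and limma 2.39%, and 16.3% had an unadjusted p under 0.05. The GIGANTEA orthologue HORVU3Hr1G021140, a clock gene, had the highest mean level of the list. It stood at 123 ± 10.4 FPKM in BCS24 drought and 94.0 ± 8.94 in BCS24 control (edgeR adjusted p = 0.185), and at 57.5 ± 17.7 in BCS8 drought and 61.3 ± 9.37 in BCS8 control (edgeR adjusted p = 0.934; SD, n = 3 each).

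The cold acclimation term covers 50 genes of the table, of which 31 were tested. Without the 2 CBF genes under study 29 remained, 5 of them the other CBF genes. Under drought edgeR called 2 of the 29 higher and 0 lower in BCS24, and 1 higher and 0 lower in BCS8. Of all tested genes 1.4% were called higher in BCS24 and 0.998% in BCS8, so both counts are small numbers read against a small background. The median log2 fold change of the 29 was 0.226 in BCS24, beside −0.00132 over all tested genes, and 0.0186 in BCS8, beside 0.0179. The 19 genes of the term that were not tested had at most 3.35 FPKM, and 4 of them were listed at 0 in all 6 control libraries and above 0 in at least 1 drought library.

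In BCS24 the called genes were HORVU2Hr1G030950 and HORVU6Hr1G083960, which have no description in the table. HORVU2Hr1G030950 averaged 95.8 ± 4.05 FPKM in BCS24 drought and 46.9 ± 6.56 in BCS24 control (SD, n = 3 each; log2 fold change 1.15 ± 0.16, edgeR adjusted p = 0.0117). In BCS8 it averaged 62.2 ± 9.47 FPKM under drought and 63.5 ± 11.8 in control (edgeR adjusted p = 0.971). HORVU6Hr1G083960 was unread in BCS24 control as CRT/DRE binding factor 1 nearly was: it had 332, 136 and 179 counts in BCS24 drought libraries, against 0 in each BCS24 control library. That is at least 223-fold higher under drought, from a floor of 3 counts over the control group (edgeR adjusted p = 0.0412). The call was lost in 14 of 22 alternatives, among them limma with a pseudocount of 1 (adjusted p = 0.28) or 0.1 (adjusted p = 0.0603) and edgeR with the replicate block (adjusted p = 0.062). With the ribosomal RNA share as a term, the edgeR adjusted p was 0.106 for this gene and 0.0892 for HORVU2Hr1G030950, so the BCS24 count was 0. In BCS8 HORVU6Hr1G083960 had 300, 80 and 1551 counts under drought, against 8, 92 and 101 in control (edgeR adjusted p = 0.197).

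In BCS8 the called gene was HORVU5Hr1G103460, also without a description. It had 35.4, 1.82 and 20.6 FPKM in BCS8 drought libraries, against 0.124, 0.586 and 0.142 FPKM in BCS8 control, a log2 fold change of 6.07 ± 1.10 (edgeR adjusted p = 0.0296). The call was lost with the ribosomal RNA share as a term (edgeR adjusted p = 0.0761), with the replicate block (edgeR adjusted p = 0.0911) and with only the groups compared in the fit (edgeR adjusted p = 0.142). In BCS24 it had 1.08, 0.552 and 1.05 FPKM under drought, against 0, 0 and 0.0435 in control, where the edgeR adjusted p was 0.0552. These counts also changed when single libraries were left out. The BCS24 count of 2 was 0 without BCS24 control library 2 or 3 or BCS24 drought library 1, and 1 without BCS8 control library 2 or 3, BCS8 drought library 1, BCS24 control library 1 or BCS24 drought library 2 or 3. The BCS8 count of 1 was 0 without BCS8 control library 1 or 3, BCS8 drought library 1, BCS24 control library 3 or BCS24 drought library 1, and 2 without BCS8 control library 2 or BCS8 drought library 2.

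**Figure D5:**
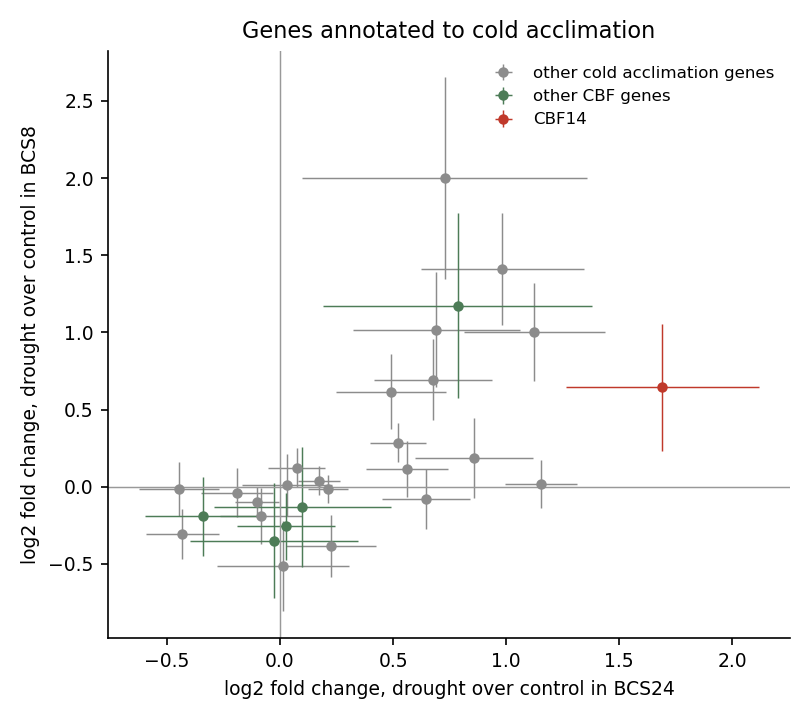
Log2 fold change of drought over control in BCS24 (horizontal) and BCS8 (vertical) for 28 of the 31 tested cold acclimation genes, with standard errors; CRT/DRE binding factor 1, HORVU6Hr1G083960 and HORVU5Hr1G103460 are left out because their BCS24 control counts are at or near 0. CBF14 (red) lies at 1.69 in BCS24 and 0.64 in BCS8, and the 5 other CBF genes (green) include CBF12C at 0.79 and 1.17.

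The wider response to cold term, with 227 tested genes beside the 2, had 10 genes higher and 2 lower under drought in BCS24, and 4 higher and 6 lower in BCS8. Over all tested genes the higher calls were 1.4% in BCS24 and 0.998% in BCS8, and the lower calls 1.25% in BCS24 and 0.536% in BCS8. The BCS24 total of 12 was 7 without BCS8 control library 1, 1 without BCS24 control library 2 or 3 or BCS24 drought library 1, and 2 without BCS24 drought library 2. The BCS8 total of 10 was 0 without BCS8 control library 1, 3 without BCS8 control library 3, and 2 without BCS8 drought library 1 or BCS24 control library 3. For response to water deprivation, with 197 tested genes, 11 were higher and 1 lower in BCS24, and 14 higher and 4 lower in BCS8. With the ribosomal RNA share as a term the totals were 0 in BCS24 and 1 in BCS8 for response to cold, and 0 in BCS24 and 2 in BCS8 for water deprivation, while over all tested genes 15 in BCS24 and 29 in BCS8 passed. That BCS24 total of 12 was 5 without BCS8 control library 1, 7 without BCS8 drought library 1, 19 without BCS8 drought library 3, and 0 without BCS24 control library 2 or 3 or BCS24 drought library 1 or 2. The BCS8 total of 18 was 0 without BCS8 control library 1, 4 without BCS8 control library 3, 3 without BCS8 drought library 1 or BCS24 control library 3, 10 without BCS24 control library 2 and 7 without BCS24 drought library 1.

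HORVU3Hr1G085930, which carries both terms, was called higher under drought in both accessions. It averaged 40.9 ± 5.61 FPKM in BCS24 drought and 11.2 ± 1.46 in BCS24 control (log2 fold change 1.99 ± 0.30, edgeR adjusted p = 0.0152), and 60.9 ± 4.72 in BCS8 drought and 19.2 ± 9.64 in BCS8 control (1.72 ± 0.30, edgeR adjusted p = 0.0262). In BCS24 that call was lost without BCS24 control library 2 or 3 or BCS24 drought library 1 or 2, and in BCS8 without BCS8 control library 1, BCS8 drought library 1 or BCS24 control library 3. HORVU4Hr1G071040 fell in both accessions, to 2.32 ± 0.26 FPKM in BCS24 drought, against 8.07 ± 1.92 in BCS24 control (edgeR adjusted p = 0.00792), and to 3.27 ± 0.07 in BCS8 drought, against 8.32 ± 1.73 in BCS8 control (edgeR adjusted p = 0.0262; SD, n = 3 each throughout). Its BCS24 call held whichever 1 library was left out, and its BCS8 call was lost without BCS8 control library 1 or 3, BCS8 drought library 1 or BCS24 control library 3. With the ribosomal RNA share as a term the calls of both genes were lost in both accessions.

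No listed gene passed the edgeR test of a difference in drought response between the accessions, the interaction test, which 0% of all tested genes passed. At an unadjusted p under 0.05 the interaction counted 3 of the 29 cold acclimation genes, 43 of the 227 response to cold genes, 41 of the 197 water deprivation genes and 3 of the 10 light and clock genes, beside 12.5% of all tested genes. The SAPK7-like gene HORVU2Hr1G075470 (interaction 0.58 ± 0.25 on the log2 scale, edgeR adjusted p = 0.374) and 1 of the 8 tested neighbours of CBF14, the ATPase HORVU5Hr1G080280 (0.35 ± 0.14, edgeR adjusted p = 0.352), were also under that limit, and DESeq2 and limma called neither. Among the cold acclimation, response to cold, water deprivation and light and clock genes DESeq2 called 2, 17, 21 and 1, and limma 0, 1, 1 and 0. Over all tested genes DESeq2 called 3.63% and limma 0.0634%.

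The genes whose levels ran most like those of each CBF gene over the 12 libraries were ranked by Pearson's r on log2(CPM + 0.5), where CPM is counts scaled to the size of the library. The libraries share their groups, so r mostly restates the group pattern. For CRT/DRE binding factor 1 the closest was HORVU5Hr1G089740, a CASP-like membrane protein gene, with r = 0.966. It had 2.32 to 5.14 CPM in BCS24 drought, 0.701 to 1.01 in BCS24 control, 3.79 to 5.10 in BCS8 drought and 1.27 to 1.79 in BCS8 control. Next were HORVU3Hr1G064990 (r = 0.965), serine hydroxymethyltransferase HORVU2Hr1G110110 (r = 0.959), HORVU3Hr1G085630 (r = 0.944) and HORVU6Hr1G077770 (r = 0.941). Serine hydroxymethyltransferase makes serine from glycine, in leaf largely in photorespiration. It had 169 to 300 CPM in BCS24 drought, 72.9 to 87.9 in BCS24 control, 229 to 349 in BCS8 drought and 138 to 194 in BCS8 control. In these 5 genes the lowest group mean was also that of BCS24 control, but all 5 were read there.

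For CBF14 the closest were HORVU5Hr1G099030 (r = 0.955), HORVU4Hr1G010130 (r = 0.948), HORVU0Hr1G003900 (r = 0.945), HORVU2Hr1G105010 (r = 0.944) and HORVU2Hr1G104930 (r = 0.944), of which HORVU2Hr1G105010 is described as a predicted protein and the others have no description. HORVU5Hr1G099030 had 27.7 to 35.9 CPM in BCS24 drought, 16.5 to 25.3 in BCS24 control, 33.1 to 36.2 in BCS8 drought and 23.3 to 40.0 in BCS8 control. No CBF gene was among the 5 closest to either of the 2.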

How the data were processed

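Leaf RNA of 12 libraries was measured. Per the labels' protocols, mRNA was selected with oligo(dT), strands were marked with dUTP and fragments were sequenced as pairs on a NovaSeq. The authors deposited counts and FPKM per gene and per transcript. Per the submitters' processing notes the tools include StringTie 2.1.6, DESeq2 and edgeR, with neither an aligner nor a genome build named. The deposited counts were tested in edgeR 4.0.16 (R 4.3.3): TMM scaling, 1 quasi-likelihood model over the 4 groups of 3 libraries, a filter that kept 17342 of 30157 genes (1 FPKM or more, 3 libraries or more), Benjamini-Hochberg adjustment, threshold 0.05. Standard errors come from the F statistic. The residual degrees of freedom were 8. The script was tested on simulated data.

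DESeq2 1.42.0 and limma 3.58.1 on log2(FPKM + 1) were alternatives, as were other scalings, filters, covariates, a replicate block and leaving out each library. Pseudocounts limit fold changes of low genes. CRT/DRE binding factor 1 has 1 count in BCS24 control, so its fitted fold change there is not given. Depth-scaled count ratios with 95% exact intervals stand in its place, and they cover counting error only, not the spread between libraries.

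The 2 genes, the gene lists and the alternatives were chosen with earlier results of these data known. Lists come from descriptions (CBF/DREB, other AP2/ERF, targets, upstream regulators, light and clock) and from annotation terms (response to cold, cold acclimation, response to water deprivation), and list counts leave out the 2 genes. The 3 CBF genes known by symbol alone were added later. Named genes are every tested CBF gene, up to 6 called genes of largest change and 2 of highest mean level per list, neighbours within 1 Mb and 5 like genes per CBF gene, of which the text gives a part. Same-numbered drought libraries of the 2 accessions had deviations with r of 0.133, 0.223 and 0.155 for numbers 1, 2 and 3. In no other pair of groups was r positive for every number. No label pairs the libraries, and differently numbered ones were not correlated, so a pairing by number is not established.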

Additional observations from a re-analysis of the deposited data

Results flagged for a closer look

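HORVU7Hr1G037180, an annotated response to cold gene and not a CBF gene, was flagged because its group means moved in opposite directions in the 2 accessions. By edgeR its rise in BCS8 was called and its fall in BCS24 was not. It averaged 11.1 ± 1.48 FPKM in BCS24 drought and 16.7 ± 2.30 in BCS24 control, and 26.3 ± 4.10 in BCS8 drought and 7.18 ± 1.32 in BCS8 control (SD, n = 3 each), with no overlap in either accession. Of all tested genes 7.83% were higher under drought in BCS8 without overlap, and the share lower in BCS24 is not given here. The difference between the drought effects of BCS24 and BCS8 on this gene was −2.37 on the log2 scale. It did not pass the interaction test (edgeR adjusted p = 0.0604).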

How the results depend on the processing

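The log2 fold changes given here for the 2 CBF genes kept their sign under every alternative, except that of CBF14 in BCS24 against BCS8 under drought. That one spanned −0.52 to 0.0889 over libraries left out. For CRT/DRE binding factor 1 this covers only drought in BCS8 and BCS24 against BCS8 under drought. CRT/DRE binding factor 1 under drought in BCS8 was 1.52 by limma on log2(FPKM + 1), 2.89 with the ribosomal RNA share as covariate and 1.89 to 2.66 over libraries left out; BCS24 against BCS8 under drought was −1.4 with that covariate. CBF14 under drought in BCS8 spanned 0.44 to 1.04. The count ratio of 366 spanned 334 to 365 under other scalings, of which deposited totals were added after the data were seen, and 234 to 478 over libraries left out; it has no value without BCS24 control library 2, which holds the 1 count. Of the other CBF genes 0 were called under any alternative, but estimates near 0 changed sign. CBF2C (HORVU5Hr1G080220) in BCS8 was 0.22 with the covariate and −0.419 to 0.0452 over libraries left out; in BCS24 it was −0.0164 and −0.0197 by limma with a pseudocount of 1 and 0.1, −0.225 with the covariate and −0.237 to 0.467 over libraries left out. CBF4B (HORVU5Hr1G080300) in BCS24 was −0.107 and −0.109 by limma, −0.0444 with the covariate and −0.138 to 0.161 over libraries left out. CBF2A (HORVU5Hr1G080310) was 0.135 in BCS8 with the covariate, and in BCS24 0.00458 under filterByExpr and −0.224 to 0.263 over libraries left out. List counts moved more. DESeq2 called, in BCS24 and BCS8, 8 and 4 cold acclimation genes, 44 and 24 response to cold genes, and 39 and 39 water deprivation genes. In BCS8 it called 1 light and clock gene. The interaction counts of DESeq2 were 2, 17, 21 and 1 for these lists in that order. DESeq2 called more genes throughout: 10.4% of all tested genes in BCS24, 6.82% in BCS8 and 3.63% in the interaction. By edgeR these shares were 2.65%, 1.53% and 0%. With the covariate the counts in BCS24 and BCS8 were 0 and 0 for cold acclimation, 0 and 1 for response to cold, 0 and 2 for water deprivation, and 0 in BCS24 for light and clock. With only the groups compared they were 4 in BCS24 and 0 in BCS8 for cold acclimation, 0 in BCS8 for response to cold and for water deprivation, and 0 in BCS24 for light and clock. Limma with either pseudocount called 1 cold acclimation and 1 light and clock gene in BCS24, and 1 response to cold and 1 water deprivation gene in the interaction. Without the filter the counts were 2 for cold acclimation in BCS8, 6 for water deprivation in BCS24 and 1 for light and clock in BCS24; filterByExpr gave 2 for cold acclimation in BCS8. Over libraries left out the counts in BCS24 and BCS8 spanned 0 to 3 and 0 to 2 for cold acclimation, 1 to 17 and 0 to 13 for response to cold, 0 to 19 and 0 to 20 for water deprivation, and 0 to 2 in BCS24 for light and clock; interaction counts spanned 0 to 1 for response to cold and for water deprivation. Over 70 pairs of a named gene and a comparison, 398 of 1540 alternative fits lost a call and 19 changed sign, those of the CBF genes given above. The cause of these shifts was not tested. Over all tested genes drought called 19 to 674 in BCS24 and 0 to 320 in BCS8 over libraries left out.

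The replicate block is a term for the library number, and no label says that same-numbered libraries are paired. For BCS24 against BCS8 under drought it gave −0.77 for CRT/DRE binding factor 1 and −0.22 for CBF14. It changed no call given in the text for that comparison. For drought within each accession the block gave 0 cold acclimation genes in BCS8 and 1 light and clock gene in BCS24. Water deprivation genes numbered 10 in BCS8 and 5 in BCS24. Over all tested genes the block gave 305 genes in BCS24 and 156 in BCS8. Depth limits CRT/DRE binding factor 1 in BCS24 control, where 1 count in 3 libraries sets the level.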

Other observations

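CRT/DRE binding factor 1 shared its pattern of being nearly unread in BCS24 control with few genes that were read again under drought. With limits set after its values were seen, 121 of 30157 genes had at most 1 count over BCS24 control and at least 100 over BCS8 control. Genes with at most 1 count over BCS24 control and at least 100 over BCS24 drought numbered 6, and 4 met both conditions. These 4 were CRT/DRE binding factor 1, HORVU5Hr1G027630, HORVU5Hr1G098180 and HORVU6Hr1G083960. HORVU5Hr1G027630 had 271 counts in BCS24 drought and 0 in BCS24 control, and 475 in BCS8 drought and 158 in BCS8 control. HORVU5Hr1G098180 ran the other way in BCS8, with 166 counts in BCS24 drought and 0 in BCS24 control, but 0 in BCS8 drought and 674 in BCS8 control. For HORVU6Hr1G083960 the summed counts were 647 in BCS24 drought and 0 in BCS24 control, and 1931 in BCS8 drought and 201 in BCS8 control.

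The 7 CBF genes too low to test had few counts, often from 1 library. CBF3 (HORVU5Hr1G080420) had 7, 4 and 4 counts in BCS24 drought libraries and 0 in each BCS24 control library, and 8, 4 and 28 in BCS8 drought and 0, 0 and 4 in BCS8 control. CBF6 (HORVU5Hr1G080450) had 29, 6 and 26 counts in BCS24 drought and 14, 21 and 15 in BCS24 control, and 11, 12 and 61 in BCS8 drought and 28, 13 and 20 in BCS8 control. Its ranges overlapped in both accessions, and in BCS8 the drought sum exceeded the control sum through library 3 alone. CBF5 (HORVU7Hr1G010510), named by its symbol alone, which may not stand for C-repeat binding factor, had 41, 0 and 13 counts in BCS8 drought and 0 in every other library. The 3 HvCBF7 genes each had 2, 0 and 2 counts in BCS24 drought and 3, 2 and 2 in BCS24 control, and 2, 1 and 5 in BCS8 drought and 0, 1 and 0 in BCS8 control. HvCBF10A (HORVU5Hr1G080430) had 0, 2 and 0 counts in BCS24 drought and 0 in each BCS24 control library, and 0, 0 and 6 in BCS8 drought and 2, 0 and 0 in BCS8 control. None of these differences was tested.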
